A study of Mus musculus with 4 samples.

Results

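The mural and smooth muscle cells described here were 52 of the 1757 cells that passed the quality filters in 4 single-cell RNA sequencing libraries of tdTomato-positive (tdTom+) cells sorted from the mouse spine. A cell was included when it held at least 3 unique molecular identifiers (UMIs, each standing for 1 captured RNA molecule) over Rgs5, Myh11 and Notch3 together, at least 1 UMI of Acta2, and no UMI of Sox9 or Ptprc. Because these cells were picked by their own counts of these 6 genes, their differences from the other cells are given as descriptions, with no test.

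Prss56 is active in boundary cap cells, which sit where nerve roots meet the embryonic spinal cord, and a Cre recombinase placed at this locus turns on tdTomato in these cells and their descendants. Control mice were Prss56Cre/+;R26tdTom/tdTom;Nf1+/+ and mutant mice were Prss56Cre/Cre;R26tdTom/tdTom;Nf1fl/fl, so that all mice carried the Prss56 Cre and the tdTomato reporter. Mutants lose Nf1, the gene of neurofibromin, a RAS GTPase-activating protein, in the Cre-expressing lineage. Control mice had a single Cre allele where mutants had a pair, and this difference cannot be told apart from that of the Nf1 alleles. Mice of each genotype were used at 3 months and at 12–16 months, and the cells came from the thoracolumbar spine, where only vertebrae that fluoresced were kept. The tissue was digested with collagenase and dispase and sorted for tdTom+ cells that took up no dead-cell dye and bore none of CD11b, CD31 and CD45. The authors treated smooth muscle, immune and endothelial cells as removable populations and set them aside. Each genotype and age gave 1 library, without a replicate, and no test between conditions was made and no p-value is given.

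Values for the 4 libraries are given in the order control at 3 months, mutant at 3 months, control at 12–16 months and mutant at 12–16 months. These libraries held 922, 542, 163 and 545 cell barcodes, of which 717, 484, 135 and 421 passed the filters. Passing cells carried 9429264, 7287981, 2154537 and 4398951 UMIs in the 4 libraries. The mural and smooth muscle cells numbered 10, 18, 2 and 22, and no barcode among passing cells occurred in more than 1 library. As a share of passing cells they made up 1.39% (95% exact binomial interval 0.671 to 2.55), 3.72% (2.22 to 5.81), 1.48% (0.180 to 5.25) and 5.23% (3.30 to 7.81). The share was therefore higher in both libraries labelled mutant than in the control library of the same age, with intervals that overlapped at both ages. All intervals in this text are 95% intervals that cover counting error only, not the variation between animals. Together the 52 cells held 542153 UMIs, with a median of 10109 per cell (range 3358 to 23896) against 11121 in the other passing cells. By library the median was 10682, 12598, 16432 and 7765 UMIs, so the mutant library of 12–16 months had the shallowest cells. With 2 cells, the control library of 12–16 months enters sums and shares but no comparison of genes between conditions.

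Mural cells wrap the endothelial tube of blood vessels. Smooth muscle cells form the contractile coat of arteries and veins, whereas pericytes lie singly on capillaries within the basement membrane they share with the endothelium. Endothelial PDGFB recruits both through PDGFRB, endothelial Jagged ligands signal through NOTCH3 to maintain them, and serum response factor with its partner myocardin switches on the contractile genes through CArG boxes in their promoters.

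Promoters of a contractile gene and of a NOTCH target are shown because both genes are described below and their promoters contain these motifs. The sequences are from RefSeq (GRCm38.p6), run 5′ to 3′ on the strand of the gene, and cover 250 bases before the transcript start and the first 30 bases of the transcript. Capitals mark the CArG box in Myl9 (chr2:156775214-156775493, plus strand), which begins 161 bases before the start. In Hey2 (chr10:30842754-30843033, minus strand) capitals mark GTGGGAA, the motif of the NOTCH partner RBPJ, or its reverse complement TTCCCAC, and the first of 2 matches begins 207 bases before the start.
Myl9: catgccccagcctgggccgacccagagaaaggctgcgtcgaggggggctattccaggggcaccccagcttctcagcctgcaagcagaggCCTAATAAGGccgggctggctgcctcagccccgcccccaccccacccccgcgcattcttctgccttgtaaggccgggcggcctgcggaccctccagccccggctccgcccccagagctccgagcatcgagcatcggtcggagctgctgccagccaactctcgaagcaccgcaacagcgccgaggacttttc
Hey2: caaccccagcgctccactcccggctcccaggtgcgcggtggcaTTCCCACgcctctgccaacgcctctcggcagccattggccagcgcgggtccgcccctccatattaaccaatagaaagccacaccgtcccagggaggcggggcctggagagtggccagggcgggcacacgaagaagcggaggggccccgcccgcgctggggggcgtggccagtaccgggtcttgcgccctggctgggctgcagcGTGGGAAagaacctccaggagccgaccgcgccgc
Over windows of 300 bases, reaching 50 bases into the transcript and searched on both strands, the CArG box occurred in 535 of 32851 promoters (1.63%) and the RBPJ motif in 2097 (6.38%). A CArG box was present in 4 of 26 promoters of the smooth muscle contractile list and in 0 of 24 of the pericyte list, and the RBPJ motif in 2 of 19 of the NOTCH list. A match is a description of the letters and not evidence of binding.

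The cells lay well inside the thresholds that chose them. The sum of Rgs5, Myh11 and Notch3 ranged from 8 to 773 UMIs (median 168.5), and Acta2, encoding smooth muscle actin, from 5 to 402 (median 74.5). Rgs5, a regulator of G protein signalling and a common mural marker, ranged from 0 to 610 UMIs per cell with a median of 68.5. Myh11, encoding smooth muscle myosin heavy chain, ranged from 3 to 160 (median 42), and Notch3 from 3 to 84 (median 18.5). Just outside were 4 cells with Acta2 and at least 1 of the 3 other genes. One of them held 118 UMIs of Rgs5, 26 of Myh11, 22 of Acta2 and 30 of Tagln, but also 1 of Ptprc. Another was a cell of 193137 UMIs with 13 of Ptprc, and the remaining pair carried 28 and 8 UMIs of Sox9. A further 33 cells reached the sum of 3 with no Acta2. All 33 held Pdgfrb and 30 held at least 10 UMIs of Cxcl12, a marrow stroma marker, while 2 had no Cxcl12 and held 113 and 53 UMIs of Rgs5.

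Markers that the rule did not use bore out the name. Tagln, which encodes the actin-binding protein transgelin, was found in 50 of the 52 cells and in 3 of 80 marrow-stroma-gated cells. These 80 cells had at least 3 UMIs of Cxcl12 and at least 1 of Lepr and Adipoq together. They were also outside the rule, with no Sox9 or Ptprc and under 2 UMIs of Cdh5. Pdgfrb was also found in 50, but in 76 of the 80 marrow-stroma-gated cells as well. Defining endothelial genes Pecam1, Cdh5, Kdr and Flt1 had 0 UMIs. The whole endothelial list of 10 genes had 17 UMIs in 10 cells, of which Plvap gave 6 in 1 cell, and the hematopoietic list had 3 UMIs. Red cell genes were at 0. Of 14 genes of fibroblasts and marrow stroma, Dcn had 3 UMIs and Lum and Pdgfra 0. Others of this list were found, with Kitl at 296 UMIs in 50 cells, Col3a1 at 90 in 10, Col1a2 at 48 in 18, Dpt at 44 in 1 and Cxcl12 at 28 in 16. None of the 52 cells was called a doublet, against 15 of all passing cells.

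Counts were summed over cells and expressed as CPM, in which the UMIs of a gene are divided by all UMIs of the same cells and scaled to a common total. A gene was called higher, or lower, when the summed difference was at least 4-fold and the difference was at least 2-fold the same way in each of the 3 libraries with at least 5 of these cells. Among 15496 genes with at least 20 UMIs, 767 were called higher (4.95%) and 437 lower (2.82%) than in the other cells. After scaling with TMM factors, which shifted the log2 difference by -0.27, the calls were 648 higher and 591 lower. Since the rule used this contrast, the counts below describe the cells and carry no further weight, and most of the other cells were chondrocyte-like, 1330 of 1705 having Sox9.

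**Figure D1:**
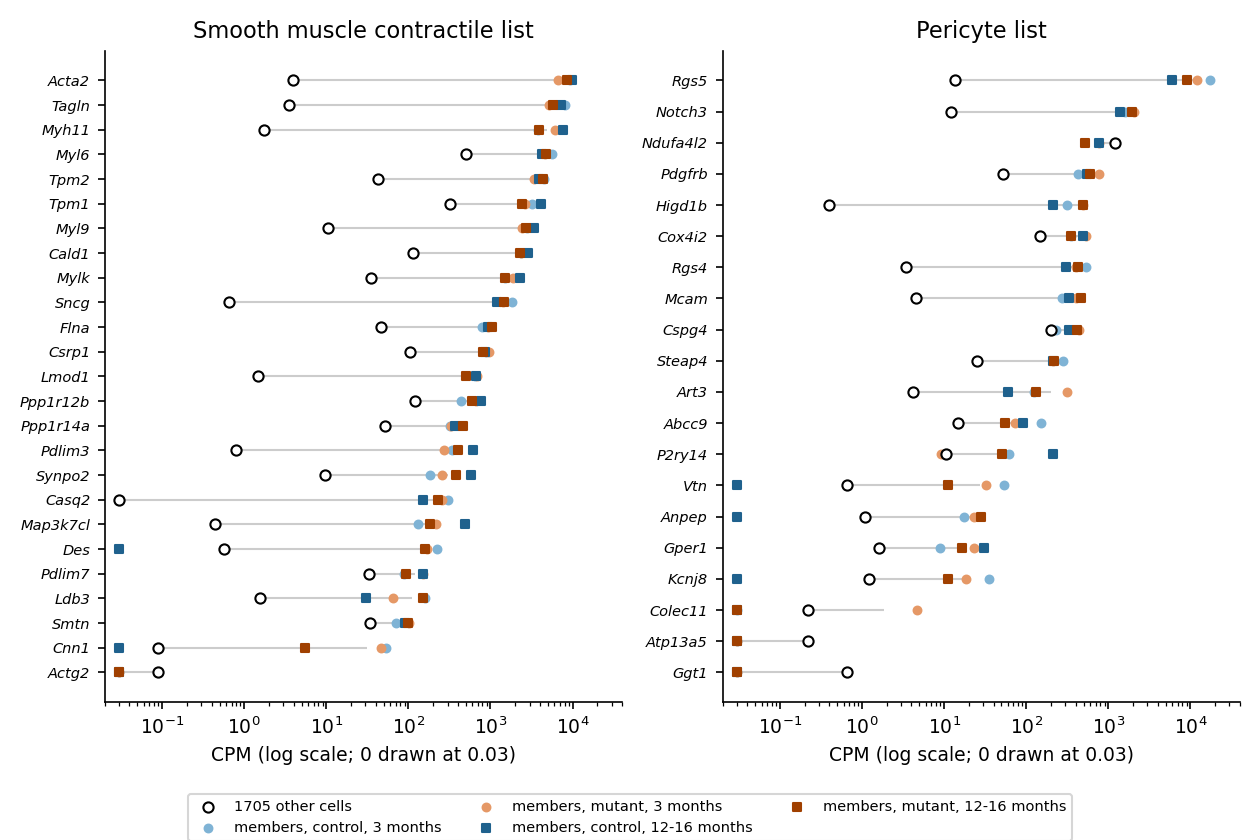
Summed CPM on a log axis (0 drawn at 0.03) of each gene of the smooth muscle contractile and pericyte lists, with filled marks for the mural and smooth muscle cells of each library (members) and an open circle for the 1705 other cells. For most genes all filled marks lie to the right of the open circle, as for Tagln with 5122 to 8109 against 3.48 CPM. For Ndufa4l2 they lie at the circle (control at 3 months) or to its left. Against the other cells of the same library, Ndufa4l2 was lower in the control of 3 months (1219 against 1759 CPM). It was higher in the mutant of 3 months (763 against 687 CPM).

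Genes of the contractile machinery were high, with 19 of 21 tested list genes called higher, none lower, and a median log2 difference of 5.62 against -0.13 for all genes tested (0.26 with genes at 0 set to a floor of 3 counts). In the 4 libraries, the summed level of Acta2 (chromosome 19, 34241090 to 34255590) was 9373, 6708, 9889 and 8495 CPM. Over all these cells it was 8049 CPM, against 3.92 CPM in the other cells, a ratio of 2056 (interval 1667 to 2565). Myh11 (chromosome 16, 14194535 to 14291372) stood at 3807, 6070, 7577 and 3855 CPM, and at 1.76 CPM in the other cells. Both are genes of the rule, so these levels only describe the selection, and neither is counted among the 21. Tagln was at 8109, 5122, 7272 and 5769 CPM, 1752-fold above the other cells (1402 to 2219). Myl9, the regulatory myosin light chain whose promoter is shown above, was at 2800, 2408, 3438 and 2720 CPM (251-fold, 218 to 288). Casq2, a calcium store protein of the sarcoplasmic reticulum, had 135 UMIs in 39 of these cells and 0 in the others, a ratio of at least 1513-fold by the exact interval and of 1887-fold with the other cells set to a floor of 3 counts. Sncg, encoding gamma-synuclein, was at 1811, 1438, 1187 and 1446 CPM against 0.660 CPM in the other cells. Lmod1, which nucleates actin filaments, Des, the muscle intermediate filament desmin, and Pdlim3 were 424-, 290- and 445-fold higher. Smaller differences belonged to Mylk, the myosin light chain kinase (49.2-fold), and to Tpm1 (8.64-fold) and Myl6 (9.64-fold), which are also used outside muscle. Smtn (2.76-fold) and Pdlim7 (3.61-fold) were not called. Actg2, an actin of visceral smooth muscle, had 0 UMIs, and Cnn1, encoding calponin, 17 UMIs in 5 cells.

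Pericyte genes were also present, with 11 of 15 tested called higher and a median log2 difference of 3.59. Higd1b stood at 318, 490, 213 and 495 CPM against 0.396 CPM in the other cells. Rgs4, a second RGS gene of pericytes, was at 530, 402, 304 and 434 CPM (128-fold). Pdgfrb, the receptor through which PDGFB recruits mural cells, was at 424, 781, 548 and 601 CPM, 12.1-fold above the other cells. Its level was 566 CPM in the 80 marrow-stroma-gated cells, so that Pdgfrb set mural cells apart from cartilage cells and not from stroma. Abcc9, the sulfonylurea receptor subunit of a vascular potassium channel, was at 150, 74.0, 91.3 and 55.6 CPM (5.76-fold). Its channel partner Kcnj8 had 10 UMIs in 7 cells and the matrix protein gene Vtn 15 in 11. Cspg4 (1.91-fold), Cox4i2 (2.92-fold) and Ndufa4l2 (ratio 0.638), also counted among pericyte genes, were not called.

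Of 20 tested regulators, 8 were called higher and 2 lower. Myocd, encoding myocardin, was at 106, 190, 304 and 172 CPM (53.3-fold, 38.9 to 73.2). Ebf1, a factor of mural and stromal cells, was at 1458, 2191, 1704 and 1730 CPM, but at 2211 CPM in the marrow-stroma-gated cells. Ebf2 (119-fold), Tbx2 (44.4-fold), Foxs1 (48.6-fold), Tbx18, a marker of pericytes and smooth muscle (7.28-fold), Zfhx3 (5.13-fold) and Prrx1 (4.97-fold) made up the rest. Both genes called lower were Krüppel-like factors, Klf2 with 94.1 against 1066 CPM and Klf4 with 51.7 against 716 CPM. Srf itself, the serum response factor gene, had 7 UMIs in these cells.

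In the NOTCH list, 7 of 16 tested genes were called higher and none lower, with a median log2 difference of 0.54 (1.82 with genes at 0 set to the floor). Notch3, which the rule used, was not counted. Those called included Notch1 (9.98-fold) and the ligand gene Jag1, which was at 292, 444, 396 and 245 CPM (26.5-fold). The transcriptional targets followed. Hey2 was at 70.7, 97.1, 60.9 and 139 CPM against 0.484 CPM (213-fold, 111 to 452). Heyl was at 247, 222, 335 and 184 CPM (54.1-fold), and Nrarp, a feedback inhibitor, at 168, 83.2, 183 and 134 CPM (187-fold). Each of these targets was above the other cells in every library. Hes1, a target used by many cell types, was at 495, 125, 183 and 273 CPM with a ratio of 1.11, and Rbpj, the shared DNA-binding partner, had a ratio of 1.01. Dll4 and Notch4, which are endothelial, had 0 UMIs.

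Among 25 signals of the PDGF, TGF-beta and angiopoietin families, 7 were called higher and 2 lower. Pdgfa (14.6-fold), Pdgfb (36.1-fold), Fgf1 (19.1-fold), Angpt2, a TIE2 ligand (11.9-fold), and the receptor genes Acvrl1 (8.91-fold) and S1pr3 (4.67-fold) were among those higher. Tgfbr1 and Tgfbr3, encoding TGF-beta receptors, were 12.0- and 7.95-fold lower.

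Receptors that set vascular tone were well represented, with 13 of 22 genes called higher and 1, Ptgs1, lower. Ednra, the endothelin receptor that drives constriction, was at 309, 402, 1065 and 523 CPM (21.8-fold). The neuropeptide Y receptor gene Npy1r was at 97.2, 213, 152 and 250 CPM (1495-fold, 498 to 7365). Adrenergic receptors were represented by Adra1a (102-fold) and Adra1b (31.9-fold), and the angiotensin receptor by Agtr1a (21.4-fold). On the relaxing side, both subunits of the nitric oxide receptor guanylate cyclase, Gucy1a1 and Gucy1b1, were 72.9- and 109-fold higher. The phosphodiesterase genes Pde5a and Pde3a, whose products break down cyclic nucleotides, were 12.2- and 4.56-fold higher. Prkg1, the cyclic GMP-dependent kinase, was 3.74-fold higher and not called.

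Channels and calcium handling had 17 of 23 genes called higher and 1 lower. Kcnk3, a background potassium channel, was at 239, 180, 122 and 156 CPM (2054-fold, 554 to 17201). Kcnab1, a subunit of voltage-gated potassium channels, was at 1122, 1327, 2404 and 1686 CPM (163-fold). Pln, encoding phospholamban, the brake on the sarcoplasmic calcium pump, was at 133, 291, 487 and 412 CPM (185-fold). Cacna1c and Cacna1h, pores of L- and T-type calcium channels, were 39.0- and 168-fold higher, and the calcium release channel gene Ryr2 220-fold. The exception was Kcnma1, the large-conductance calcium-activated potassium channel, at 29.5 CPM (16 UMIs) against 1463 CPM in the other cells, 49.6-fold lower.

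In the basement membrane and elastic matrix list, 14 of 25 genes were called higher and 2 lower. Col4a1, a chain of type IV collagen, was at 769, 1285, 913 and 334 CPM (19.5-fold), with the mutant library of 12–16 months lowest. Col18a1 (109-fold), Lama5 (183-fold), Lamc3 (72.7-fold) and the integrins Itga7 (197-fold) and Itga8 (61.5-fold), which bind such matrix, were higher too. Sparcl1, a matricellular gene, was at 2473, 2274, 4686 and 2008 CPM (28.5-fold), whereas its relative Sparc was at 2959, 2496, 2191 and 1018 CPM, 6.04-fold below the other cells. Itga5 was also called lower.

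Genes of the surrounding skeletal tissue were low. Of 17 chondrocyte genes 15 were called lower (median log2 difference -8.92, and -7.92 at the floor), and Col2a1 had 1 UMI in all 52 cells. The other 2 encode partners of Sox9 in cartilage. Sox5 was at 530, 938, 761 and 901 CPM, with a ratio of 0.955 (0.868 to 1.05), and Sox6 at 172 against 503 CPM (0.341). Of 10 osteoblast genes 7 were called lower. Of 14 stromal genes 6 were lower and 1 higher. The latter was Kitl, the stem cell factor gene, at 504, 555, 304 and 606 CPM, 7.47-fold above all other cells but below the 1142 CPM of marrow-stroma-gated cells. Mki67 and Top2a, markers of dividing cells, had 0 UMIs.

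Ranked by the lower bound of the ratio, the 20 leading genes were Myh11, Acta2, Casq2, Tagln, Sncg, Dgkb, Olfr558, Rgs5, Col19a1, Higd1b, Kcnk3, Xirp1, Npy1r, Gja4, Tbx3, Slc38a11, Olfr78, Gm37800, Nrip2 and Slc22a2. The place of Myh11, Acta2 and Rgs5 in this order was set by the rule, which used them. This order holds 2 olfactory receptor genes, Olfr558 (1894-fold) and Olfr78, which was at 97.2, 180, 91.3 and 139 CPM. Gja4, encoding the gap junction protein connexin 37, was 922-fold higher. Xirp1, a striated muscle gene, had 49 UMIs in 24 cells and 0 in the others. The 10 genes furthest below the other cells were Prg4, Ecrg4, Cytl1, Serpina1b, Chad, Snorc, Col2a1, Comp, Bglap and Dcn, genes of cartilage, bone and stroma for the most part. Prg4, encoding lubricin, was at 9.22 against 13703 CPM.

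Of 14 genes of RAS-MAPK feedback, 2 were called higher, the inhibitor genes Spry4 (24.4-fold) and Dusp4 (45.4-fold). Nf1 was at 124, 148, 91.3 and 106 CPM, and at 131, 150, 148 and 126 CPM in the other cells. The 3′ tags read the end of the transcript, outside the deleted part, so these levels check neither genotype label, and the libraries are described as labelled. Prss56 had 0 UMIs in these cells and 1 in all others.

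Immediate early genes, which also respond to tissue dissociation, were lower in these cells, with 10 of 19 called lower and none higher. Their summed level was 3759 against 20807 CPM. Fos was at 363 CPM in mural and smooth muscle cells and at 4763 CPM in Sox9-positive cells. It was also low in other vascular and stromal cells, at 331 CPM in the marrow-stroma-gated cells. In the 18 endothelial-gated cells (at least 2 UMIs of Cdh5 and no Sox9 or Ptprc) Fos was at 244 CPM. The summed level of the list was 24054 CPM in Sox9-positive, 5345 CPM in endothelial-gated and 2858 CPM in marrow-stroma-gated cells, and each of the 19 genes was lower in value in both of these gated groups, as in the mural and smooth muscle cells, than in Sox9-positive cells.

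Rgs5 divided the cells by itself. It had 0 UMIs in 13 cells, between 1 and 10 in 3, and over 10 in 36, so that few cells lay between. By library, 1, 3, 0 and 9 cells had 0 UMIs and 8, 15, 2 and 11 had over 10. Most cells at 0 were thus from the mutant library of 12–16 months, which had the lowest median depth. In 29 cells Rgs5 had more UMIs than Myh11 (called Rgs5-leading, by library 8, 10, 1 and 10) and in 23 it had fewer (Myh11-leading, by library 2, 8, 1 and 12). The median depth was 10426 UMIs in Rgs5-leading and 8189 in Myh11-leading cells. This is a division of a range and not of cell types, and it used Rgs5 and Myh11, which are therefore not results.

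**Figure D2:**
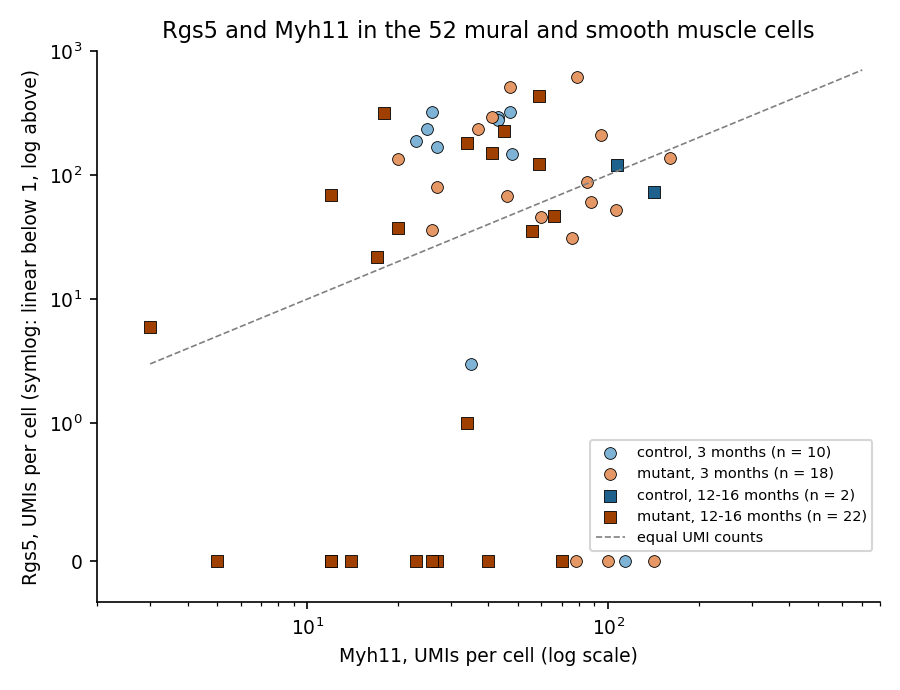
UMIs of Rgs5 (vertical, linear below 1 and log above) against UMIs of Myh11 (horizontal, log) in each of the 52 cells, marked by library, with a dashed line where both are equal. A group of 13 cells lies at 0 for Rgs5 while 36 cells hold more than 10 UMIs, and every cell holds at least 3 UMIs of Myh11.

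Some contractile genes were higher in Myh11-leading cells and some pericyte genes in Rgs5-leading cells. A gene was called here when the ratio of summed CPM was at least 2-fold with an interval that left out 1. Of 4834 genes with at least 20 UMIs in the 52 cells, 283 were called higher in Rgs5-leading cells (5.85%) and 186 lower (3.85%). Of 22 contractile genes, 7 were lower and 0 higher in Rgs5-leading cells, with a median log2 ratio of -0.82. The count was 11 without the control library of 12–16 months and also 11 without the mutant library of that age. Acta2 was at 5395 CPM in Rgs5-leading and 11470 CPM in Myh11-leading cells, a ratio of 0.470 (0.442 to 0.50). Tpm2, a tropomyosin, was at 2513 against 5881 CPM (0.427, 0.391 to 0.467), and Myl9 at 1707 against 3880 CPM. Mylk, Lmod1, Flna and Csrp1 were the other 4. Des (1.72) and Casq2 (1.60) had higher values in the Rgs5-leading cells and were not called. Of 12 pericyte genes, 5 were higher in Rgs5-leading cells and 0 lower. Abcc9 was at 131 against 25.3 CPM (5.17, 2.18 to 14.9), Art3, an ADP-ribosyltransferase gene of pericytes, at 308 against 59.1 CPM (5.21, 2.96 to 9.90), and Steap4, a metalloreductase gene, at 321 against 110 CPM. Higd1b (2.30) and Ndufa4l2 (2.07) were the other members called. Rgs4 went the other way in value, with a ratio of 0.53. Within the 3 libraries with at least 5 cells, control at 3 months, mutant at 3 months and mutant at 12–16 months, 18, 19 and 18 of the 22 contractile genes had higher values in Myh11-leading cells, of which the control library held 2. Pericyte genes had higher values in Rgs5-leading cells for 9, 10 and 10 of 12.

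**Figure D3:**
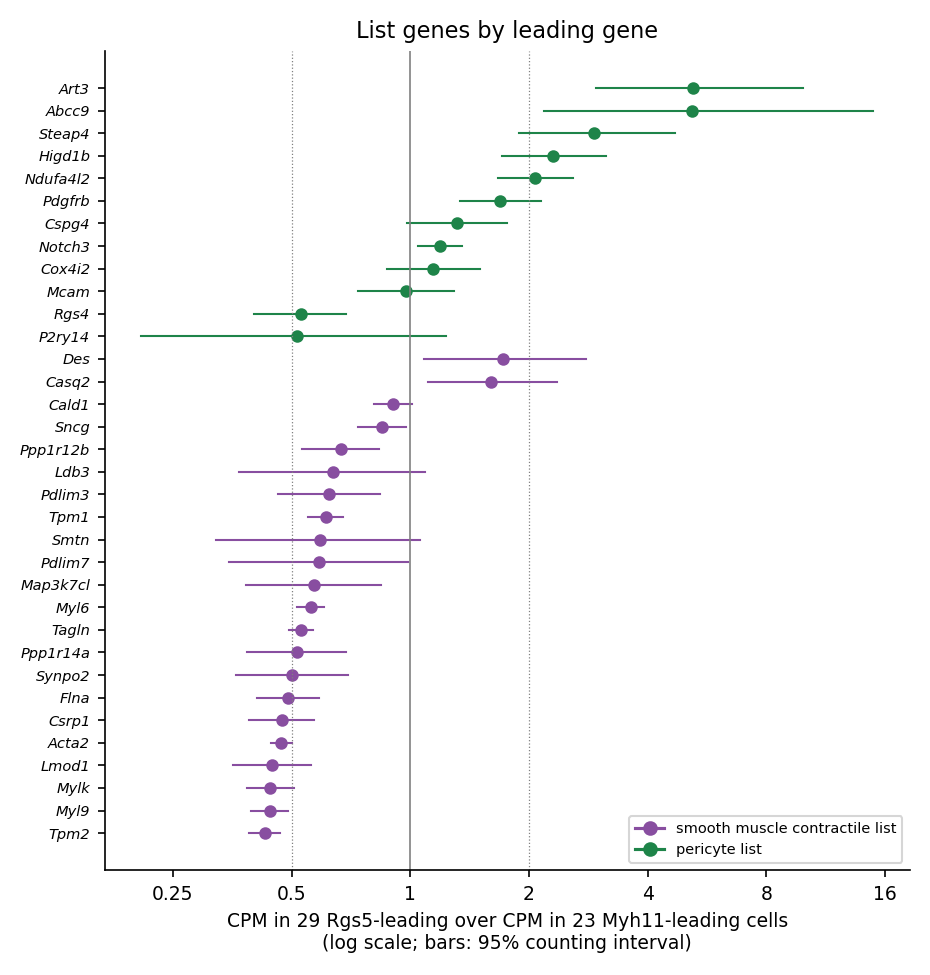
Ratio of summed CPM in Rgs5-leading over Myh11-leading cells on a log axis for the tested genes of the contractile and pericyte lists, with bars for 95% counting intervals and dotted lines at 2-fold either way. Of 22 contractile genes 20 lie below a ratio of 1, Des (1.72) and Casq2 (1.60) lie above it, and 9 of 12 pericyte genes lie above it.

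Per cell, the summed contractile genes had a median of 235 per 10000 UMIs (range 105 to 462) in Rgs5-leading cells and 438 (110 to 636) in Myh11-leading cells. Pericyte genes had medians of 49.9 (20.6 to 94.6) and 31.2 (9.11 to 45.6). Both ranges overlapped between the 2 sets of cells. Over the 52 cells, Spearman's rho of the contractile with the pericyte sum was -0.34, and that of Rgs5 was -0.51 with the contractile and 0.61 with the pericyte sum. These are descriptions over cells that share libraries and a common total per cell. The cells with over 10 UMIs of Rgs5 were also set against those with at most 10. Most of the latter came from the mutant library of 12–16 months, where 9 cells had 0 UMIs and 2 had 1 to 10. The part of the library in this division was not tested. In the Rgs5-rich cells 19 of the 22 contractile genes had lower values, but 1, Ldb3, passed the 2-fold call. Acta2 then had a ratio of 0.565 (0.532 to 0.601) and Tpm2 of 0.514 (0.471 to 0.560). Under that division Casq2 was 3.34-fold higher in the Rgs5-rich cells, and Abcc9 and Art3 were higher again.

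Of 19 channel and calcium handling genes, 4 were called higher and 3 lower in Rgs5-leading cells. Pln was at 124 CPM in Rgs5-leading and 549 CPM in Myh11-leading cells (0.227, 0.154 to 0.328). In the mutant library of 3 months Pln was at 125 against 499 CPM, and in that of 12–16 months at 103 against 702 CPM. Kcna5 (0.177) and Cacna1h (0.129) were the other channel genes called lower in Rgs5-leading cells, while Abcc9, Trpc6 (2.52), Ano1, a calcium-activated chloride channel (2.17), and Kcnk3 (2.04) were called higher. Of 14 vasoactive genes, 5 were called higher and 3 lower. Npy1r was at 98.3 against 325 CPM, Ramp1, which forms the CGRP receptor, at 49.1 against 279 CPM, and the purinergic channel gene P2rx1 had a ratio of 0.137. Agtr1a had 25 UMIs in Rgs5-leading cells and 1 in Myh11-leading cells, a ratio of 19.4 (3.18 to 797). Adra1b (2.62, 1.16 to 6.67), Calcrl, a receptor subunit that pairs with Ramp1 (2.13, 1.07 to 4.54), and Rgs16, in 3 cells, were called higher too. Ednrb was called higher in Rgs5-leading cells through 1 cell, which held all 19 UMIs. Itga8 had 2 against 42 UMIs, 27.1-fold lower in Rgs5-leading cells (7.04 to 231), whereas Sparc (3.28) and Fbn1 (3.49) were higher. None of 11 NOTCH genes was called either way, a short list to set against the 5.85% of all genes called higher and 3.85% called lower.

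The genes furthest apart included some carried by few cells. Fst, encoding the activin inhibitor follistatin, had 95 UMIs in 5 Rgs5-leading cells and 0 in the others, and 89 of them came from 2 cells of the mutant library of 3 months. Dpt, a fibroblast gene, had 44 UMIs in 1 cell. Col3a1, a fibrillar collagen gene, had 90 UMIs in 10 Rgs5-leading cells and Olfm2 48 in 18, with 0 in the Myh11-leading cells for both. Slc12a2, a chloride cotransporter gene, had 52 UMIs against 1. On the side of the Myh11-leading cells were Itga8, Pgm5, Foxp2, Plin4 (0.134) and Sorbs2, at 93 UMIs in Rgs5-leading against 297 in Myh11-leading cells (0.243, 0.190 to 0.308).

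Between the libraries of 3 months, immediate early genes were lower in the mutant than in the control. With the same rule for calls as in the division above, 242 of 3224 genes were called higher in the library labelled mutant (7.51%) and 124 lower (3.85%). Of 14 immediate early genes 10 were lower and 0 higher, with a median log2 ratio of -1.71 against 0.07 for all genes. Junb, encoding an AP-1 subunit, was at 41.6 CPM in the mutant and 1042 CPM in the control (0.0399, 0.0178 to 0.0784), and was found in 6 of 18 and 8 of 10 cells. In the other cells of the same libraries the ratio for Junb was 0.558. Egr1 was at 37.0 against 380 CPM (0.0974, 0.0395 to 0.209; other cells 0.629), Fos at 111 against 601 CPM (0.185; other cells 0.485) and the heat shock gene Hspa1a at 134 against 742 CPM (0.181; other cells 0.897). In value, 13 of the 14 genes were lower in mural and smooth muscle cells and 11 of the same 14 in the other cells. Among Rgs5-leading cells alone, Junb had a ratio of 0.0410 and Egr1 of 0.131. The median depth was 12598 UMIs in the mutant cells and 10682 in the control cells. Gm42418, a gene model that overlaps ribosomal RNA, was at 21925 against 5477 CPM, and at 25473 against 6496 CPM in the other cells. The Y-linked gene Ddx3y had 0 UMIs in the mural and smooth muscle cells of both libraries and was at 0.141 against 10.3 CPM in the other cells. The part of either in the differences between labels was not tested.

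**Figure D4:**
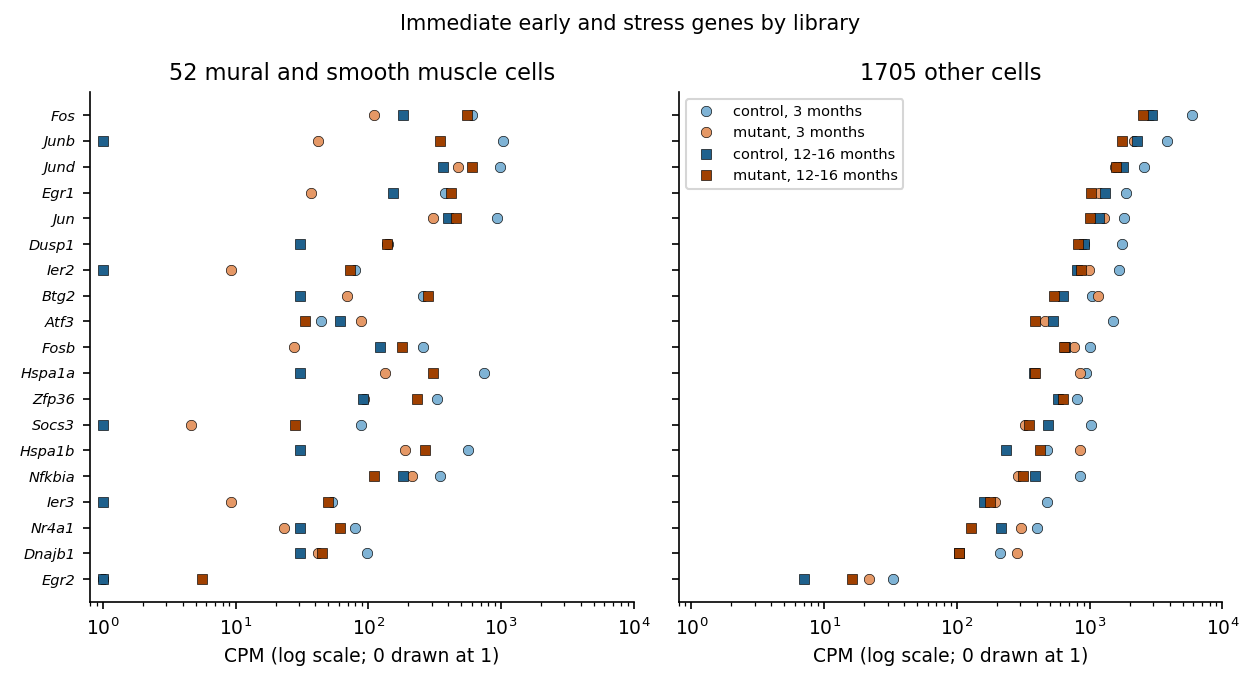
Summed CPM on a log axis (0 drawn at 1) of 19 immediate early and stress genes in the 52 mural and smooth muscle cells and in the 1705 other cells, with a mark for each library. In mural and smooth muscle cells Egr1 is lowest in the mutant library of 3 months (37.0 CPM) and Junb stands there at 41.6 CPM, while the marks of the other cells lie closer together.

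Of 23 contractile genes, 1 was called lower by label at 3 months (Ldb3, 0.407) and 0 higher. Over all genes 3.85% were called lower and 7.51% higher. Acta2 had a ratio of 0.716, Myh11 of 1.59 and Notch3 of 1.32, none of them 2-fold apart. Tagln had a ratio of 0.632. Within Rgs5-leading cells it was 0.459 (0.402 to 0.525), and within Myh11-leading cells 0.638 (0.561 to 0.726). Among 12 pericyte genes Art3 was higher (2.54). Channels had 6 of 17 genes called higher and 0 lower in the mutant, among them Pln (2.20), Ano1 (2.18; other cells 0.446) and Slc8a1, the sodium-calcium exchanger (2.55; other cells 3.68). Myh11-leading cells made up 8 of 18 mutant and 2 of 10 control cells. Within Myh11-leading cells the ratio was 1.13 (0.604 to 2.28) for Pln and 1.20 (0.586 to 2.69) for Slc8a1, and within Rgs5-leading cells 5.22 (1.21 to 47.1) and 4.74 (1.84 to 15.5). Of 18 matrix genes 4 were higher and 0 lower, with Col4a2 at 763 against 292 CPM (2.62, 1.79 to 3.93; other cells 0.707). In the NOTCH list Hes1 was lower at 125 against 495 CPM (0.252, 0.153 to 0.406), with a ratio of 0.282 in the other cells, and Nrarp had a ratio of 0.496. Nf1 was at 148 against 124 CPM (1.2, 0.620 to 2.43).

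The genes furthest apart at 3 months were partly carried by few cells. Higher in the mutant were Gm8797, with 50 UMIs in 16 cells against 0 (other cells 32.3-fold), Lsamp, with 29 in 9 cells against 0, Neat1, with 29 in 8 cells against 0, Cyp26b1, with 29 in 3 cells against 0, and Dpt in 1 cell. Lower in the mutant were Junb, Egr1, Ifitm1 with 3 against 26 UMIs, H2-M9 with 0 against 22 UMIs in 4 cells, and Rgs16 with 1 against 21 UMIs in 1 cell each.

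Between 3 and 12–16 months in the libraries labelled mutant, immediate early genes were higher at the later age. Of 3883 genes, 140 were called higher at 12–16 months (3.61%) and 144 lower (3.71%). Of 13 immediate early genes, 7 were higher and 1, Atf3 (0.380), lower, with a median log2 ratio of 1.19. The mutant library of 3 months is part of both comparisons. Egr1 was at 417 CPM at 12–16 months and 37.0 CPM at 3 months (11.3, 5.44 to 27.1; other cells 0.875). Junb was at 345 against 41.6 CPM (8.29, 4.10 to 19.0; other cells 0.815) and Fos at 551 against 111 CPM (4.96). In the other cells, 10 of the same 13 genes had lower values at the later age, against 2 of 13 here. Within the division by Rgs5 and Myh11, Egr1 had a ratio of 2.30 (0.757 to 7.69) in Rgs5-leading and 33.7 (8.97 to 285) in Myh11-leading cells, and Junb ratios of 1.15 and 19.7, and the difference between these ratios was not tested.

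Basement membrane collagen was lower at the later age in the mutant. Of 21 matrix genes 2 were higher, Lamc3 (13.8) and Itga8 (2.41), and 4 lower. Col4a1 was at 334 against 1285 CPM (0.260, 0.193 to 0.344), with a ratio of 2.91 in the other cells. Col4a2 was at 211 against 763 CPM (0.277; other cells 2.35). Sparc was at 1018 against 2496 CPM (0.408; other cells 0.895), and Fbn1 was the fourth. Contractile genes had 1 of 23 called (Ldb3, 2.32) and pericyte genes 1 of 12 (Art3, 0.425). Nf1 had a ratio of 0.715 (0.383 to 1.30). Libraries differed in other ways as well, since Gm42418 was at 1875 against 21925 CPM here and at 3316 against 25473 CPM in the other cells. The Y-linked gene Ddx3y had 0 UMIs in the mural and smooth muscle cells of 3 months and 5 at 12–16 months. The part of either in the differences between ages was not tested. Besides Egr1 and Junb, the genes furthest above 3 months included Gm10260 (12.8) and Rasl11b (24.1, with 20 UMIs against 1), and those furthest below were Fst with 0 against 89 UMIs, Gm42418, Dpt, Cyp26b1 and Camk1d (0.110; other cells 0.187).

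tdTomato RNA was sparse in mural and smooth muscle cells and in the rest of the sort. It was found in 8 of 52 cells, 15.4% (6.88 to 28.1), and in 124 of 1705 other cells, 7.27% (6.09 to 8.61). After thinning each cell to 750 UMIs the expected shares were 2.02% and 0.615%. By library, 0 of 10, 1 of 18, 1 of 2 and 6 of 22 cells had a UMI, and 0 of 10 allows a share of cells with a UMI of up to 30% by a floor of 3 counts (30.8% by the exact interval). The summed levels were 0, 18.5, 30.4 and 55.6 CPM, against 8.27, 4.24, 7.07 and 6.4 CPM in the other cells. With 15 UMIs in all, at most 4 in a cell, the summed level was 27.7 CPM (15.5 to 45.6), and 10 of these UMIs came from the mutant library of 12–16 months. The 2 cells with the lowest sums of the rule's 3 genes (8 and 14 UMIs) held 4 of the 15 UMIs, the first of them being the Myh11-leading cell with tdTomato, and the 2 cells without Tagln, which include the second of them, held 5. Without that library the share was 6.67%. For comparison, tdTomato was found in 105 of 1330 Sox9-positive cells (7.89%, median depth 11994 UMIs), in 3 of 87 Ptprc-positive cells (3.45%, 9174 UMIs) and in 0 of 18 endothelial-gated cells, which allows a share of up to 16.7% by the same floor (18.5% by the exact interval). Ptprc-positive cells, which the sort was set to discard, stand here for the background. Their interval (0.717 to 9.75) overlaps that of the mural and smooth muscle cells. The summed level of Ptprc-positive cells was 2.38 CPM (0.490 to 6.94), an interval below that of the mural and smooth muscle cells (15.5 to 45.6). By library these intervals were apart only in the mutant library of 12–16 months, with 26.7 to 102 against 0 to 12.2 CPM. In the mutant library of 3 months they overlapped, with 5.04 to 47.3 against 0.285 to 8.51 CPM, and 1 cell held all 4 UMIs. After thinning to 750 UMIs, the expected share of Ptprc-positive cells was 0.130%. Rgs5-leading cells had tdTomato in 7 of 29 (24.1%, 10.3 to 43.5) and Myh11-leading cells in 1 of 23 (4.35%, 0.110 to 21.9). Without the mutant library of 12–16 months, Rgs5-leading cells had it in 2 of 19 (10.5%). Acta2, which the rule required in every mural and smooth muscle cell, was found in 2.35% of all other cells, in 10.3% of Ptprc-positive cells and in 0 of 80 marrow-stroma-gated cells. The last value is partly set by the rule, which took any cell without Sox9 and Ptprc that had Acta2 and reached the sum of the 3 genes.

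**Figure D5:**
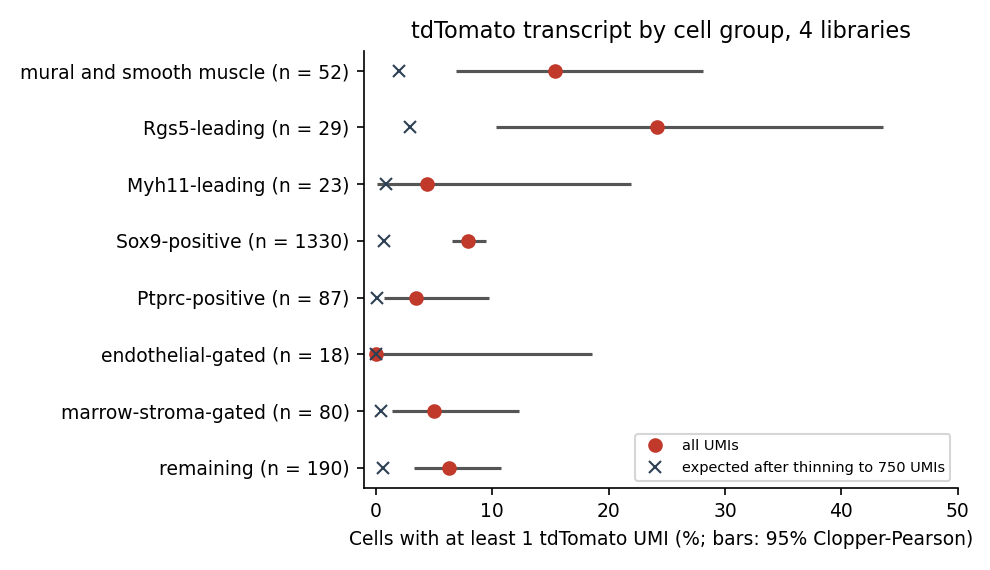
Percent of cells with at least 1 UMI of tdTomato in the mural and smooth muscle cells, their Rgs5-leading and Myh11-leading cells, and the other groups of cells, with bars for exact 95% binomial intervals and crosses for the share expected after thinning to 750 UMIs. The intervals of the mural and smooth muscle cells (6.88 to 28.1) and of the Ptprc-positive cells (0.717 to 9.75) overlap. Those of their summed levels, 27.7 CPM (15.5 to 45.6) and 2.38 CPM (0.490 to 6.94), do not.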

How the data were processed

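Single tdTom+ cells of the vertebrae were profiled with 10x Genomics 3′ chemistry in 4 libraries, 1 per genotype and age, grouped by their labels. The deposited files hold raw UMI counts per gene and cell. Per the labels, the authors made these counts with Cell Ranger (8.0.0) on mm10 with the tdTomato sequence added. Their later steps, removal of ambient RNA with SoupX and integration with Seurat, are not part of the counts. Genes numbered 32286, and 99.8% matched the GENCODE annotation of GRCm38, the source of the gene coordinates. No per-sample column was left unused (0).

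The cut-offs of the study, above 750 UMIs, above 500 genes and below 7% of counts from mitochondrial genes, were applied to the raw counts. The authors applied them after ambient correction and removal of rarely found genes. The passing cells here were more numerous than theirs, and the part of these steps in that was not tested. Counts were summed over cells and divided by their total (CPM), with 95% intervals that were exact Poisson for levels, exact conditional binomial for ratios and Clopper-Pearson for shares. Genes with under 20 UMIs in a comparison were left out. Doublets were scored with Scrublet in scanpy (expected rate 6%, score threshold 0.25) and the 15 called cells were kept. Thinning to 750 UMIs gave the expected share of cells with a UMI. Intervals and floors (3 counts) cover counting error only. With 1 library per condition no test was made.

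The cells and gene lists were chosen with earlier results of these data known. Genes named are the rule's genes, list members, the 20 highest by the lower bound and 10 lowest by the upper bound of the ratio (the latter among genes of at least 50 CPM in the other cells), the 5 highest and 5 lowest of each further comparison, and Nf1, Prss56 and tdTomato, leaving out mitochondrial, ribosomal, hemoglobin and sex-linked genes. Some genes that the rule names are not reported here. Ddx3y is given outside this rule, chosen after its values were seen. In simulated data for mural and smooth muscle against other cells, the rule for calls took 0.0461% of unchanged genes among 15396 genes tested. It took 100% of genes changed 8-fold, which were drawn only from genes with at least 50 UMIs expected in these cells. Simulated counts had counting error only, with no variation between cells or libraries, so these are not error rates for the real data. Alternatives were a stricter gate, a gate without Sox9 and Ptprc, other UMI filters, TMM factors from edgeR, doublet removal, equal weight of libraries, each library left out, and, chosen after seeing the data, only Rgs5-leading or Myh11-leading cells, a division at a gap in Rgs5, tdTomato in Rgs5-leading cells without each library, no Ptprc-positive cells and a condition on the interval. Python 3.11.15, numpy 2.4.6, scipy 1.17.1, pandas 2.3.3, scanpy 1.11.5, matplotlib 3.10.9, R 4.3.3 and edgeR 4.0.16 were used.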

Additional observations from a re-analysis of the deposited data

How the results depend on the processing

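Of 107 alternative values, 90 kept to the reported ones within the spread or 1.5-fold, 17 moved and none reversed. The causes were not tested. Some alternatives could move little. The stricter gate, with the sum raised to 6 and Acta2 to 3, removed no cell, since the lowest values were 8 and 5. Doublet removal and the filter of over 2000 UMIs also kept all 52 cells, so comparisons within these cells could not move. With no condition on Sox9 and Ptprc, 272 genes were lower in the mutant at 3 months. With at least 50 UMIs per gene, which tests fewer genes, the label comparison gave 92 higher and 24 lower and the ages 33 and 49. With no UMI filter, 281 genes were lower by label, and 307 were higher and 218 lower by age. In Rgs5-leading cells alone the label gave 129 higher and 76 lower, and in Myh11-leading cells alone 79 genes were lower at the later age. The division at the gap in Rgs5 left 1 contractile gene called higher in Rgs5-poor cells (19 of 22 higher in value, 14 with intervals that left out 1), and thinning left tdTomato at 2.02%.

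Leaving out each library in turn, the share of cells was 2.25 to 4.04% (highest without the control library of 3 months), genes called higher 748 to 840 and lower 438 to 627, contractile genes higher in Myh11-leading cells 6 to 11 (11 without either library of 12–16 months), pericyte genes higher in Rgs5-leading cells 4 to 5, and tdTomato 6.67 to 20.6% (lowest without the mutant library of 12–16 months). No paired analysis was possible because each group has only replicate 1. Labels at 12–16 months and ages in controls were not compared, since the control library held 2 cells where 5 were required. Depth limits genes of few UMIs, including tdTomato.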

Other observations

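Some further genes of these cells, chosen after their values were seen, belong to no list above, and values are given in the same order of libraries. Ntf3, encoding neurotrophin-3, was at 115, 213, 152 and 178 CPM (168-fold above the other cells), with 96 UMIs in 39 of the 52 cells.

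Tcf15, a basic helix-loop-helix factor gene known from the embryonic somites, was at 150, 134, 122 and 172 CPM (849-fold, 319 to 3191), in 28 cells. Abcc8, the sulfonylurea receptor gene related to Abcc9, had 31 UMIs in 18 cells and 0 in the other cells, at least 332-fold higher by the exact interval and 433-fold with the floor of 3 counts. Aoc3, a vascular amine oxidase gene, was at 371, 545, 426 and 395 CPM (489-fold), in 51 of the 52 cells.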
